A study of Mus musculus with 12 samples.

Results

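The pyruvate dehydrogenase kinases and phosphatases were described in muscle RNA as the 7 genes Pdk1, Pdk2, Pdk3, Pdk4, Pdp1, Pdp2 and Pdpr, found by symbol among 54532 genes. RNA came from the gastrocnemius, a calf muscle, of female mice of the immunodeficient ICR SCID strain, whose SCID mutation removes mature T and B cells. There were 3 groups of 4 biological replicates. TL mice bore a tumour of HT1080 cells, a human fibrosarcoma line, under the skin and were given selpercatinib, which inhibits the receptor kinase RET, by gavage at 30 mg/kg daily over 19 days. TV mice bore the same tumour and were given vehicle. NTV mice bore no tumour and were given vehicle. No group without a tumour was given selpercatinib, so the drug was seen only in tumour-bearing mice, and the labels used here give no age. The series concerns selpercatinib in cancer cachexia, in which muscle and fat waste in the presence of a tumour.

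The pyruvate dehydrogenase complex converts pyruvate to acetyl-CoA inside mitochondria and so joins glycolysis to the citric acid cycle. The kinases, encoded by the Pdk genes, phosphorylate the E1 alpha subunit and switch the complex off, while phosphatases switch it on again. Pdk2 is the widely expressed kinase, and Pdk4 is the isoform that rises in muscle with fasting, fatty acids and glucocorticoids and spares glucose by blocking pyruvate oxidation. Pdk1 is known as a target of the hypoxia factor HIF-1, and Pdk3 is expressed mostly outside skeletal muscle. Pdp1, the calcium-sensitive catalytic subunit, is the main phosphatase of muscle. Pdp2 is the insulin-responsive catalytic subunit, and Pdpr encodes the regulatory subunit of the phosphatase. The activity of the complex depends on phosphorylation, which RNA levels do not measure.

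Levels are given as FPKM, reads scaled by gene length and by a factor for each library, so that genes can be compared within a library. That factor was not in strict proportion to the assigned reads. Values of single libraries follow the order of the replicate numbers, which are 1, 4, 5 and 7 in TL, 3, 4, 6 and 8 in TV, and 2, 3, 5 and 6 in NTV. Depth ranged from 14939830 to 23580603 assigned reads per library. All 8 markers of skeletal muscle fibres were found in every library, with a summed level of 48202 to 54861 FPKM in TL, 47061 to 89056 FPKM in TV and 50541 to 64220 FPKM in NTV. Other measures differed between the groups. The mitochondrial share of reads was 6.04 to 13.9% in TL, 5.08 to 7.70% in TV and 11.6 to 13.5% in NTV. The summed level of 8 slow and oxidative fibre markers was 1220 to 3174 FPKM in TL, 907 to 2352 FPKM in TV and 2824 to 4022 FPKM in NTV. Mb, which encodes myoglobin, and Myh2, the myosin of fast oxidative fibres, made up most of that sum. Those 2 had their highest mean in NTV, while the other 6 markers, Myh7, Tnnt1, Tnni1, Tnnc1, Myl3 and Atp2a2, had their lowest mean in NTV. The 7 tenocyte markers summed to 18.6 to 45.7 FPKM in TL, 17.2 to 41.5 FPKM in TV and 63.6 to 122.1 FPKM in NTV, with Kera and Chad at 0 in at least 1 TL library. Of these markers 6 had their highest mean in NTV. Scx went the other way, with means of 9.86 FPKM in TL, 11.2 FPKM in TV and 4.89 FPKM in NTV. The 8 adipocyte markers summed to 939 to 2136 FPKM in TL, 844 to 1590 FPKM in TV and 534 to 1049 FPKM in NTV, with Lep at 0 in at least 1 TV library. Car3 and Cfd made up 87.2% of the summed means in TL, 89.8% in TV and 91.1% in NTV. The means of 7 markers were higher in TV than in NTV, and that of Plin1 was not (3.07 and 3.13 FPKM). The 6 endothelial markers summed to 41.0 to 54.9 FPKM in TL, 50.8 to 61.5 in TV and 69.6 to 89.6 in NTV. The macrophage and erythroid sums overlapped among the groups, although all 7 macrophage markers had their highest mean in NTV. Ucp1, which defines brown fat, reached 58.3 and 3.97 FPKM in TL replicates 1 and 5 and 53.4 FPKM in NTV replicate 5. Elsewhere it was at most 1.06 FPKM, and 0 in a TL and a TV library. It was 1 of 5 brown adipocyte markers, whose sums overlapped among the groups. Cidea, Elovl3 and Otop1 were also highest in TL replicates 1 and 5 and NTV replicate 5. Cox8b, which made up most of the sum, was not. It had 418.7, 649.2 and 422.1 FPKM in these libraries, and its highest value was 914.5 FPKM in TV replicate 8. The part of these differences in the results below was not tested.

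Pdk2 and Pdk4 carried almost all of the kinase message. Over the 12 libraries Pdk2 averaged 191.9 FPKM and Pdk4 187.7 FPKM, and their ranges overlapped, so their order was not fixed. Pdpr followed at 27.5 FPKM, Pdp1 at 23.7 FPKM and Pdk1 at 10.1 FPKM, each overlapping the next in range. Pdp2 averaged 1.21 FPKM and was below all of these in every library. Pdk3 was lowest, between 0.0994 and 0.597 FPKM, on 4 to 31 reads per library. It fell under the mean of 0.5 FPKM required for the test, which 12754 genes passed, so 6 of the 7 genes were tested. Its 4 values were 0.296, 0.493, 0.0994 and 0.522 FPKM in TL, 0.433, 0.415, 0.257 and 0.591 FPKM in TV, and 0.428, 0.512, 0.522 and 0.597 FPKM in NTV. The groups overlapped, and with no filter on low values limma gave it adjusted p of 0.481 for TL against NTV, 0.823 for TL against TV and 0.676 for TV against NTV.

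**Figure D1:**
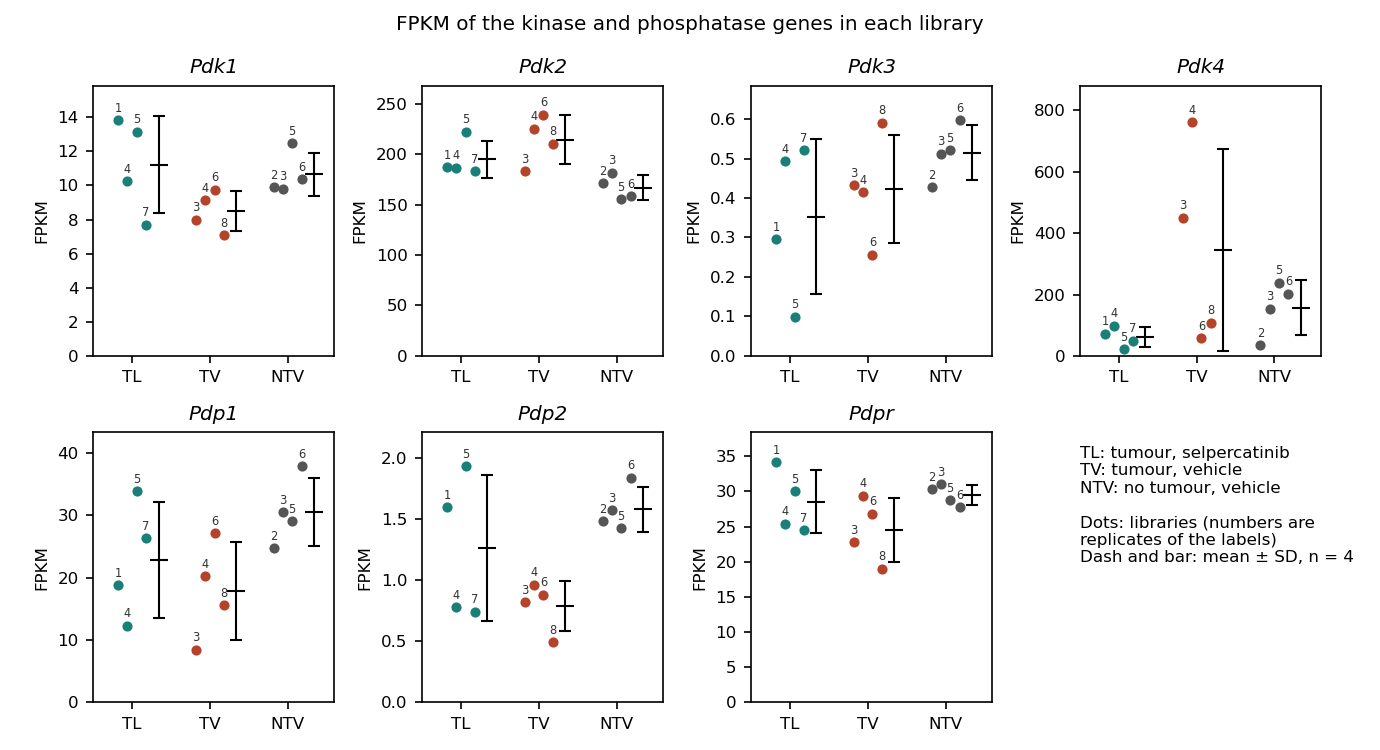
FPKM (vertical axis, linear, a scale of its own in each panel) of the 7 genes in each library of TL, TV and NTV. Dots are libraries numbered by replicate, and the dash with its bar is the mean ± SD of 4 libraries. Pdk4 spread from 56.9 to 762 FPKM within TV, while Pdk2 stayed between 155 and 239 FPKM over all libraries.

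In muscle of TV mice, Pdk2 was higher and Pdp2 was lower than in NTV mice, and the other 4 tested genes did not pass the test. Pdk2 stood at 183, 225, 239 and 210 FPKM in TV, against 171, 182, 155 and 158 FPKM in NTV. Every TV value was above every NTV value, although TV replicate 3 and NTV replicate 3 lay close together. The log2 change of FPKM + 0.5 was 0.36 ± 0.11 (SE, limma, adjusted p = 0.0358), a fold of 1.28 with a 95% interval of 1.08 to 1.52. Pdp2 stood at 0.822, 0.963, 0.882 and 0.494 FPKM in TV, against 1.48, 1.57, 1.43 and 1.84 FPKM in NTV. The groups were apart, on 39 to 114 reads per TV library and 150 to 178 reads per NTV library. Its log2 change was -0.70 ± 0.22 (SE, limma, adjusted p = 0.0351), a fold of 0.616 with a 95% interval of 0.444 to 0.855. In whole muscle, fewer cells of a type and less RNA per cell cannot be told apart.

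These 2 calls among 6 tested genes stand beside a background of 25.2% of all 12754 genes called in TV against NTV, 13.8% higher and 11.5% lower, so the share of called genes in the family was close to that of the whole transcriptome. Both calls were close to the threshold. That of Pdk2 was lost when any 1 of TV replicates 4 and 6 and NTV replicates 2, 5 and 6 was left out (limma, adjusted p of up to 0.0897). It was also lost with quantile normalization (log2 change 0.25, adjusted p = 0.124), with no filter on low values (0.0657), in a fit of TV and NTV alone (0.0542) and when the 3 libraries rich in Ucp1 were dropped (0.0903). That of Pdp2 was lost without TV replicate 3, without TV replicate 8 and without any single NTV library (limma, adjusted p of up to 0.0875), and with no filter on low values (0.0800).

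The other genes gave these values in the same comparison. Pdk1 had 7.99, 9.13, 9.75 and 7.09 FPKM in TV, against 9.89, 9.82, 12.5 and 10.4 FPKM in NTV. All TV values were below all NTV values, by 0.31 ± 0.17 on the log2 scale, but the change was not called (SE, limma, adjusted p = 0.190). Groups that did not overlap were thus seen for 1 gene that was higher and 2 that were lower, against a background of 14.4% and 12.7% of all genes. Pdp1 had 8.43, 20.2, 27.1 and 15.6 FPKM in TV, against 24.7, 30.5, 29.0 and 37.8 FPKM in NTV. TV replicate 6 lay inside the NTV range and the other 3 TV libraries below it. Its log2 change was -0.86 ± 0.35 (SE, limma, adjusted p = 0.0870), and it was called only without TV replicate 6 (-1.09, adjusted p = 0.0383). Pdpr had 22.8, 29.4, 26.8 and 19.0 FPKM in TV, against 30.3, 31.0, 28.8 and 27.8 FPKM in NTV. These ranges overlapped (log2 change -0.28 ± 0.14, SE, limma, adjusted p = 0.163). A share of Pdpr reads may belong to 9430091E24Rik on the opposite strand, which overlaps 169 of its 5028 exon bases and averaged 12.3 FPKM, and the strand of counting is not stated.

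Pdk4 was the most variable gene of the family. It stood at 72.9, 99.0, 21.7 and 49.7 FPKM in TL, at 450, 762, 56.9 and 109 FPKM in TV, and at 34.7, 154, 239 and 203 FPKM in NTV. TV replicates 3 and 4 were far above all other libraries, TV replicate 6 was below 3 of the 4 NTV libraries, and NTV replicate 2 was as low as the TL libraries. Its SD within groups was 1.35 on the log2 scale, more than that of 99.6% of the tested genes, whose median was 0.208. Among 338 genes within 2-fold of its level, 97.6% had a smaller SD. Pdp1 followed with 0.554, more than 92.1% of genes, while Pdk2 had 0.135, more than only 18.0%. TV against NTV gave Pdk4 a log2 change of 0.76 ± 0.84 (SE, limma, adjusted p = 0.539), with a 95% interval from -1.06 to 2.58. Without NTV replicate 2 the estimate was 0.14, and without TV replicate 6 it was 1.39, neither of them called.

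In the comparison of TL with TV, which asks what selpercatinib did in tumour-bearing mice, no gene of the family was called, 0 of 6 with limma and 0 of 6 with voom on the recovered reads, beside 0.517% of all genes (0.235% higher and 0.282% lower). The TL and TV ranges overlapped for all 6, while 3.36% of all genes lay wholly higher and 4.05% wholly lower in TL. The share of all genes at an unadjusted p under 0.05 was not counted for any comparison. In the family there was 1 such gene, Pdk4. Its mean was 60.8 ± 33.0 FPKM in TL, against 345 ± 329 FPKM in TV and 158 ± 89.0 FPKM in NTV (SD, n = 4). No TL library exceeded 99.0 FPKM, while 3 TV libraries and 3 NTV libraries did. The log2 change in TL against TV was -2.01 ± 0.84 (SE, limma, unadjusted p = 0.0331, adjusted p = 0.268), a fold of 0.248 with a 95% interval of 0.0702 to 0.876 before adjustment over genes. The TL range lay partly inside the TV range because of TV replicate 6, and the estimate moved between -2.65 without that library and -1.40 without TV replicate 4. Without TL replicates 1 and 5 it was -1.61 (adjusted p = 0.755).

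The remaining changes in TL against TV were 0.36 ± 0.17 for Pdk1, 0.40 ± 0.22 for Pdp2, 0.37 ± 0.35 for Pdp1, 0.22 ± 0.14 for Pdpr and -0.14 ± 0.11 for Pdk2 on the log2 scale (SE, limma, adjusted p between 0.322 and 0.650). Pdk2 had 187, 187, 222 and 183 FPKM in TL. Its 95% interval for TL against TV ran from -0.38 to 0.11, which leaves out a 2-fold change either way. Pdp1 had 18.8, 12.3, 33.9 and 26.3 FPKM in TL, a range that covered most of both other groups, and its interval from -0.38 to 1.12 includes a doubling. TV against NTV and TL against TV share the TV libraries, so their values are given side by side only.

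TL against NTV called 0 of the 6 genes with limma and 0 with voom, and 0 had an unadjusted p under 0.05, beside 8.81% of all genes called (4.19% higher and 4.62% lower). Pdk2 was higher in each TL library than in each NTV library, by 0.22 ± 0.11 on the log2 scale (SE, limma, adjusted p = 0.222), as were 10.8% of all genes, while 10.1% lay wholly lower. Pdk4 differed by -1.26 ± 0.84 (adjusted p = 0.353), Pdp1 by -0.49 ± 0.35 (0.383) and Pdp2 by -0.30 ± 0.22 (0.399). Pdk1 at 0.045 ± 0.17 and Pdpr at -0.058 ± 0.14 had estimates near 0, with intervals of -0.32 to 0.41 and -0.36 to 0.25. The sign for Pdk1 turned without TL replicate 1 or 5, and that for Pdpr turned without TL replicate 7 and when libraries were scaled to an equal sum.

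**Figure D2:**
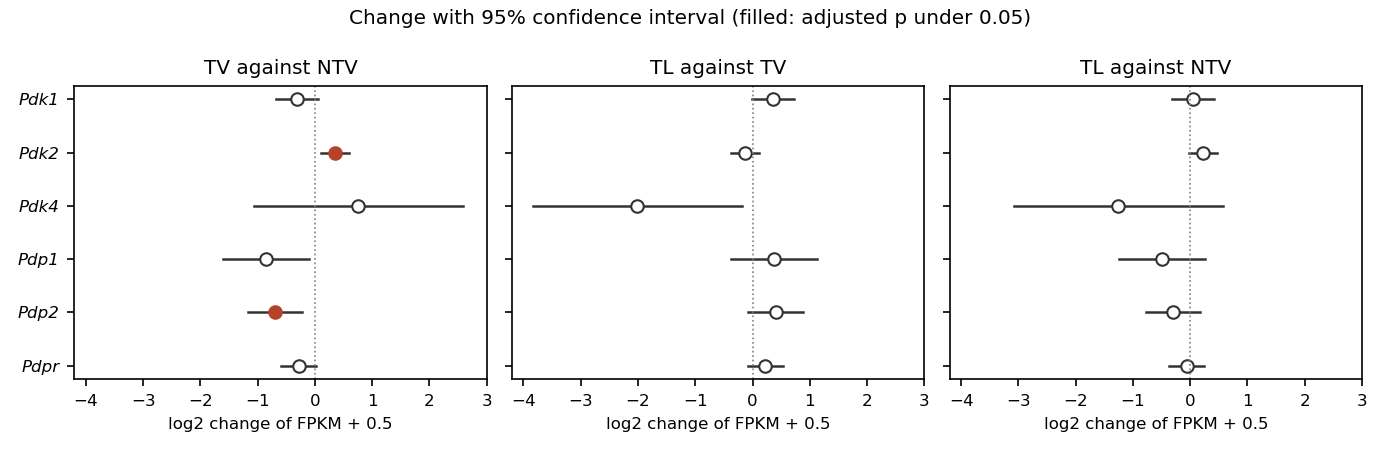
Log2 change of FPKM + 0.5 (horizontal axis) with its 95% confidence interval for the 6 tested genes (vertical axis), with 1 panel for each of the 3 comparisons. Filled points have an adjusted p under 0.05 (limma), which holds for Pdk2 and Pdp2 in TV against NTV. The Pdk4 interval is the widest in each panel.

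Within TL the libraries fell apart for several genes. Pdp2 had 1.60 and 1.93 FPKM in replicates 1 and 5, close to the NTV libraries, and 0.776 and 0.742 FPKM in replicates 4 and 7, within the TV range. Pdk1 had 13.8 and 13.2 FPKM in replicates 1 and 5, and 10.2 and 7.70 FPKM in replicates 4 and 7. Pdpr had 34.1 and 30.0 FPKM in the first pair, and 25.4 and 24.5 FPKM in the second. Pdk4 and Pdp1 did not divide the TL libraries in this way. Replicates 1 and 5 were also the TL libraries with Ucp1 above 2 FPKM. Their mitochondrial shares were 10.1 and 13.9%, against 6.04 and 6.55% in replicates 4 and 7. Their adipocyte markers summed to 1912 and 2136 FPKM, against 1034 and 939 FPKM, and their slow and oxidative fibre markers to 3174 and 2843 FPKM, against 1220 and 1680 FPKM. The part of these measures in the levels of Pdp2, Pdk1 and Pdpr was not tested. Without both libraries Pdp2 was called lower in TL than in NTV (-0.72, limma, adjusted p = 0.0316), and its change in TL against TV was -0.020. Since replicates 1 and 5 held the highest Pdp2 values of TL, a lower TL level follows from leaving them out. No conclusion is drawn from this call.

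The promoters of the genes with the largest or called changes are printed to show the sequence at their start sites, from RefSeq on GRCm38.p6, 250 bases before to 50 bases after the start. The table matched 6 of the 7 genes with 8 promoters. Motifs were searched on both strands and are in capitals. The searched letters were GTAAACA for FoxO factors, AGGTCA for nuclear receptors, AGAACA for the glucocorticoid receptor, and GCGTG or ACGTG as a hypoxia response element. These occur in 3.65%, 16.26%, 18.97% and 43.77% of 32851 promoters of the same length. The Pdk4 promoter, chr6:5496229-5496528 on the minus strand, holds GCGTG at position -71 from the start site. The first of 2 Pdk2 promoters in the table, chr11:95041322-95041621 on the minus strand, holds ACGTG on both strands, overlapping as CACGTG from position -126. The Pdp2 promoter, chr8:104591222-104591521 on the plus strand, holds the same palindrome from position -219. A match is a description of the letters in this window and not a binding site.
Pdk4: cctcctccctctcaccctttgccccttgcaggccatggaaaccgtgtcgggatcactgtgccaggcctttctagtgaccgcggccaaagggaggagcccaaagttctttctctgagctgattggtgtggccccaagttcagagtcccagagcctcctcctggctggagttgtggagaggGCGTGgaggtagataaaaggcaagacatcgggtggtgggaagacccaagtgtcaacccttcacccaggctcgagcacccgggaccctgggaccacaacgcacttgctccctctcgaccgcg
Pdk2: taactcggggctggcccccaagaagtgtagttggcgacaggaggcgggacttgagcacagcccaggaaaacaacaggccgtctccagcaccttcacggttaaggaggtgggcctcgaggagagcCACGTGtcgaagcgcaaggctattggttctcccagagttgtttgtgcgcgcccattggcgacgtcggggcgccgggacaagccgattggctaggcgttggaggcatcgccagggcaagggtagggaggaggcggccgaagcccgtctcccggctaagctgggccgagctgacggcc
Pdp2: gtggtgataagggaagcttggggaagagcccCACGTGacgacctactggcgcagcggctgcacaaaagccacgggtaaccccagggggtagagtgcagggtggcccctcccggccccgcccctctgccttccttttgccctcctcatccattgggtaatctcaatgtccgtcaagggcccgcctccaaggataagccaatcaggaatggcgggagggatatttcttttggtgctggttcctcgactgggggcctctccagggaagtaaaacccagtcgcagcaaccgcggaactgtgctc
The other 3 motifs were not among the letters of these windows. In the build used by the files, mm10, the genes lie at chr6:5483351-5496309 (Pdk4), chr11:95026258-95041354 (Pdk2), chr8:104591451-104599026 (Pdp2), chr2:71873224-71903858 (Pdk1), chrX:93764607-93832201 (Pdk3), chr4:11958184-11966452 (Pdp1) and chr8:111094630-111137074 (Pdpr). The FPKM values count reads over the exons of each whole gene, so isoforms were not told apart.

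The make-up of the kinase message differed between libraries mainly through Pdk4. The 4 kinases summed to 274, 296, 257 and 241 FPKM in TL, to 642, 997, 306 and 327 FPKM in TV, and to 216, 346, 407 and 372 FPKM in NTV. Pdk4 made up 26.6, 33.4, 8.45 and 20.6% of that sum in TL, 70.2, 76.5, 18.6 and 33.3% in TV, and 16.0, 44.6, 58.7 and 54.5% in NTV. Pdk2 was thus the leading kinase message in all 4 TL libraries, in TV replicates 6 and 8 and in NTV replicates 2 and 3. Pdk1 never exceeded 5.12% of the sum. On the phosphatase side, Pdp1 made up 91.1 to 97.3% of the catalytic message over all libraries, so the fall of Pdp2 in TV concerned the minor subunit. The sum of Pdp1 and Pdp2 was 20.4, 13.1, 35.8 and 27.0 FPKM in TL, 9.25, 21.2, 28.0 and 16.1 FPKM in TV, and 26.2, 32.0, 30.5 and 39.7 FPKM in NTV.

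**Figure D3:**
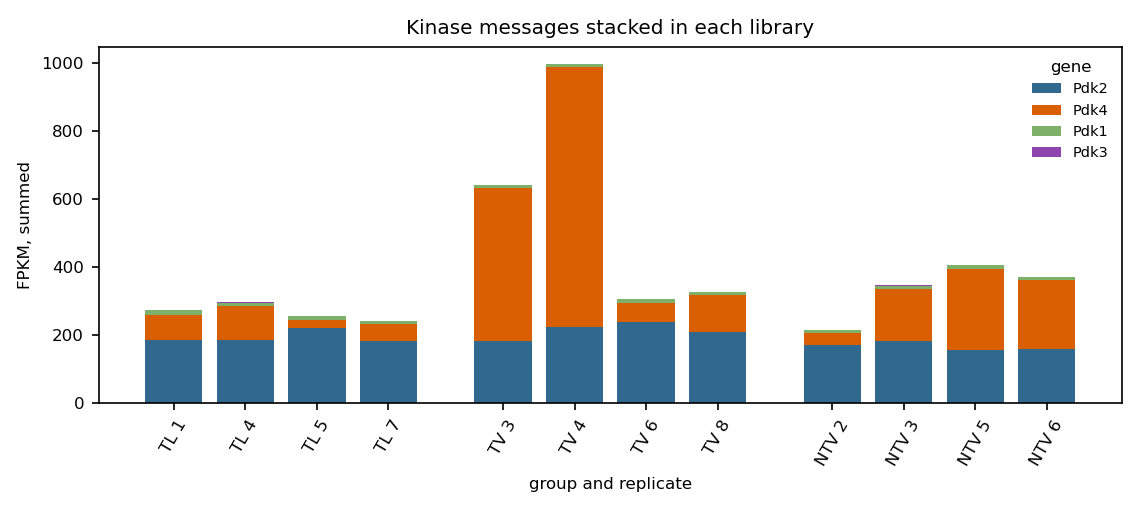
FPKM of the 4 kinase genes stacked in each library (vertical axis, linear, from 0), ordered by group and replicate. Pdk4 made the difference between TV replicates 3 and 4, at 642 and 997 FPKM in all, and the other libraries, while the Pdk2 segment was of similar height throughout.

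The genes of the complex itself fell in TV. All 5 were called lower in TV than in NTV, beside 11.5% of all genes, with a median log2 change of -0.70 beside 0.015 for all genes. Dlat, the E2 core subunit on which the kinases dock, had 22.1, 31.2, 34.5 and 25.2 FPKM in TV, against 56.4, 56.7, 58.5 and 60.1 FPKM in NTV (log2 change -1.04 ± 0.18, SE, limma, adjusted p = 0.00246). Pdhx, the E3-binding subunit, fell by 0.79 ± 0.14, Pdhb, the E1 beta subunit, by 0.70 ± 0.14, and Dld, the E3 enzyme shared with other complexes, by 0.60 ± 0.13 (limma, adjusted p between 0.00267 and 0.00614). Pdha1, the E1 alpha subunit that the kinases phosphorylate, fell by 0.56 ± 0.18 (limma, adjusted p = 0.0440), and its call ended without any 1 of the 8 libraries (adjusted p of up to 0.112). None of the 5 TV ranges overlapped its NTV range, while 12.7% of all genes lay wholly lower in TV. The mitochondrial share of reads, given above, was lower in TV as well. Of the 8 slow and oxidative fibre markers, Mb averaged 668 FPKM in TV and 2047 FPKM in NTV and was called lower (limma, adjusted p = 0.0134), Myh2 averaged 351 FPKM in TV and 753 FPKM in NTV without being called (0.0562), and the other 6 had higher means in TV with none called. The part of these measures was not tested.

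In TL the mean of each subunit gene lay between those of the other groups, while single TL libraries overlapped with TV for all 5 genes and with NTV for 4. Dlat had 48.4, 30.4, 50.3 and 34.2 FPKM, Pdhb 82.5, 56.0, 88.5 and 62.5 FPKM, and Pdha1 177, 98.2, 171 and 112 FPKM. Replicates 1 and 5 were again the higher ones, with Pdha1 inside the NTV range of 161 to 187 FPKM, and Pdha1 in replicate 4 was below the lowest TV library at 98.7 FPKM. With limma 0 of the 5 genes were called in TL against TV, where the median log2 change was 0.35 and 4 genes had an unadjusted p under 0.05, and voom called 0. In TL against NTV, 0 were called with either tool, 3 had an unadjusted p under 0.05 and the median was -0.36. Leaving out TL replicates 1 and 5 gave 4 genes called lower in TL than in NTV, namely Dlat, Pdhx, Pdhb and Pdha1, and leaving out replicate 5 alone gave 2. Since replicates 1 and 5 were the higher TL libraries for all 5 genes, lower TL levels follow from leaving them out.

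Ratios of regulator to target messages were formed after the values had been seen and are given as descriptions with no test. Pdk2 over Dlat was 3.86, 6.14, 4.42 and 5.36 in TL, 8.28, 7.21, 6.92 and 8.36 in TV, and 3.04, 3.20, 2.65 and 2.64 in NTV. The 3 groups did not overlap over Dlat, with TV highest, TL between and NTV lowest. Dlat had the largest fall of the 5 subunit genes in TV, and Pdha1 the smallest. Set over Pdha1 instead, Pdk2 in TL overlapped with both other groups. TL replicate 1 had 186.8 FPKM of Pdk2 and 176.5 FPKM of Pdha1, against 171.4 and 160.9 FPKM in NTV replicate 2. TL replicate 4 had 186.6 and 98.2 FPKM, against 183.0 and 98.7 FPKM in TV replicate 3. The sum of all kinases over Dlat was 5.66, 9.75, 5.11 and 7.06 in TL, 29.1, 31.9, 8.86 and 13.0 in TV, and 3.84, 6.11, 6.96 and 6.20 in NTV. All TV libraries were above all NTV libraries, and TL overlapped with both. The sum of Pdp1 and Pdp2 over Pdha1 overlapped among the groups, at 0.115 to 0.243 in TL, 0.0937 to 0.226 in TV and 0.163 to 0.230 in NTV. The phosphatase message thus did not separate the groups when set against that of its substrate.

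**Figure D4:**
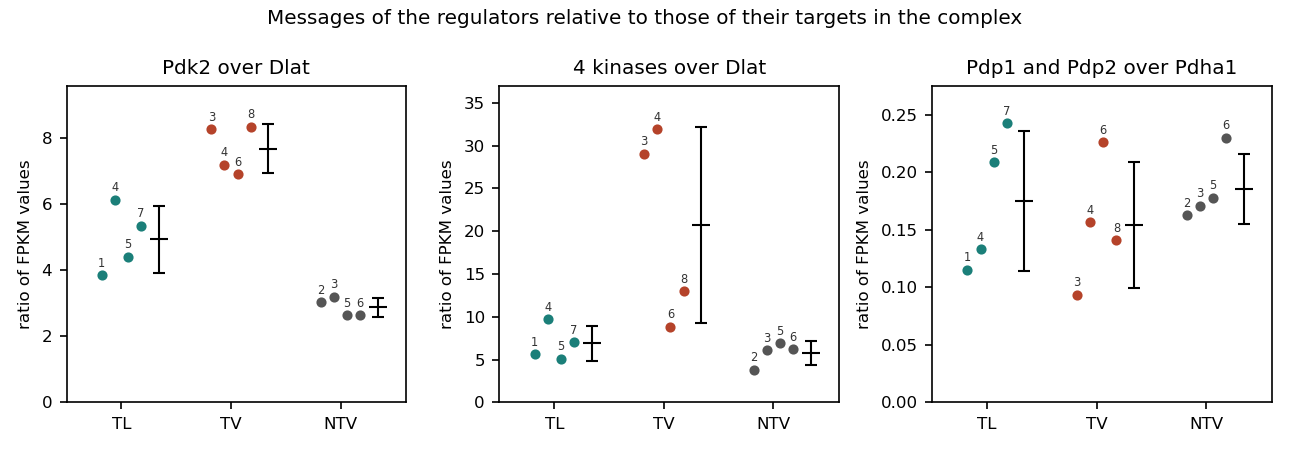
Ratios of FPKM values (vertical axes, linear, from 0) in each library of TL, TV and NTV for Pdk2 over Dlat, the 4 kinases over Dlat, and Pdp1 plus Pdp2 over Pdha1. Dots are libraries numbered by replicate, with the mean ± SD of 4 libraries. Pdk2 over Dlat ran from 6.92 to 8.36 in TV, above the TL range of 3.86 to 6.14 and the NTV range of 2.64 to 3.20. Pdk2 over Pdha1, which is not drawn, did not separate TL from the other groups.

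Among 11 genes of pyruvate import and its other fates, 1 rose, 4 fell and 6 were not called in TV against NTV (median -0.13). The shares of all genes were 13.8% called higher and 11.5% called lower. Gpt2, the mitochondrial alanine aminotransferase, rose by 1.31 ± 0.20, while its cytosolic counterpart Gpt fell by 1.34 ± 0.29 on the log2 scale (SE, limma, adjusted p = 0.00172 and 0.00692). Gpt2 stood at 52.0, 64.7, 56.3 and 62.0 FPKM in TL, 80.5, 90.2, 61.4 and 70.1 FPKM in TV and 21.2, 40.2, 38.2 and 24.1 FPKM in NTV. It was the gene of this list called in TL against NTV (0.96 ± 0.20, limma, adjusted p = 0.0152), while voom called 2, 1 higher and 1 lower. Genes called lower there with limma numbered 1 without TL replicate 1, 2 without TL replicate 5 and 3 without both. Ldhb, the lactate dehydrogenase subunit of oxidative tissue, fell by 1.26 ± 0.30, and Pcx, pyruvate carboxylase, by 1.19 ± 0.31 in TV against NTV (limma, adjusted p = 0.0120 and 0.0169). In TL against TV limma called 0 of the 11, with 0 at an unadjusted p under 0.05 and 0 with voom.

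The related oxoacid dehydrogenases, with the branched-chain kinase and phosphatase, numbered 8 genes, of which 2 fell and 6 were not called in TV against NTV (median -0.27). Of all genes 11.5% were called lower there. Dlst, the E2 subunit of the oxoglutarate complex, fell by 0.78 ± 0.12, and Dbt, the E2 subunit of the branched-chain complex, by 0.81 ± 0.24 (SE, limma, adjusted p = 0.00195 and 0.0279). The call of Dbt ended without any 1 of 6 libraries, NTV replicates 2, 3 and 6 and TV replicates 3, 4 and 8 (adjusted p of up to 0.0762). Dlst was the gene of this list called lower in TL than in NTV (-0.54 ± 0.12, limma, adjusted p = 0.0227), which was lost without TL replicate 4 or 7 and without NTV replicate 5 or 6 (up to 0.0671). That call of Dlst was also lost when libraries were scaled to an equal sum (limma, adjusted p = 0.0566). TL against TV had 0 of 8 called with limma or voom and 2 at an unadjusted p under 0.05.

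Of 18 transcription factors and coactivators known to act on Pdk4 or Pdk1, 6 rose, 3 fell and 9 were not called in TV against NTV (median 0.34). Among all genes 13.8% were called higher and 11.5% lower in that comparison. Foxo3, a FoxO factor of atrophy and fasting, had 7.77, 12.2, 7.34 and 7.79 FPKM in TL, 14.3, 14.5, 8.99 and 12.4 FPKM in TV, and 5.19, 5.20, 4.72 and 4.48 FPKM in NTV. Its change in TV against NTV was 1.25 ± 0.17 (SE, limma, adjusted p = 0.00134). Foxo1 had 3.31, 11.3, 3.44 and 4.95 FPKM in TL, 12.3, 6.81, 3.49 and 12.7 FPKM in TV, and 2.77, 2.89, 3.38 and 2.53 FPKM in NTV. It rose by 1.31 ± 0.40 in TV (limma, adjusted p = 0.0343), a call that ended without any single one of the 8 libraries but TV replicate 6, with an adjusted p of up to 0.0930. Cebpb, a factor linked to glucocorticoid responses, rose by 1.03 ± 0.30 (limma, adjusted p = 0.0277), which was lost when any 1 of TV replicates 3 and 8 and NTV replicates 2 and 6 was left out (up to 0.0730). Ppargc1b, a coactivator of mitochondrial genes, fell by 0.98 ± 0.19 (limma, adjusted p = 0.00447). The number that rose was 3 when TV replicate 8, NTV replicate 2 or NTV replicate 6 was left out. In TL against NTV 2 rose and 3 fell, beside 4.19% of all genes called higher and 4.62% called lower. Without NTV replicate 5 both counts were 0, without NTV replicate 6 0 rose, and without NTV replicate 2, NTV replicate 3 or TL replicate 7 0 fell. In TL against TV 0 were called with limma or voom, with 5 at an unadjusted p under 0.05, and 1 was called lower without TL replicate 4.

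Of genes known to be induced with Pdk4 by fasting, fatty acids or glucocorticoids, 19 were tested. In TV against NTV 6 rose, 2 fell and 11 were not called (median 0.018, beside 0.015 for all genes). Of all genes 13.8% were called higher and 11.5% lower. The 4 with the largest changes were glucocorticoid or atrophy genes. Fkbp5, a co-chaperone of the glucocorticoid receptor, rose by 2.41 ± 0.47 (SE, limma, adjusted p = 0.00481). Trim63, the ubiquitin ligase MuRF1, rose by 2.12 ± 0.56 (limma, adjusted p = 0.0183), a call that ended without TV replicate 3 (0.0501). Per1, a clock gene induced by glucocorticoids, rose by 2.04 ± 0.63 (limma, adjusted p = 0.0345), and Fbxo32, the ligase atrogin-1, by 1.79 ± 0.54 (limma, adjusted p = 0.0319), and each of these 2 calls ended without any 1 of 6 libraries (up to 0.0900 and 0.0879). The number that rose was 3 without TV replicate 3. In TL against NTV, Fkbp5 was the gene called (2.29 ± 0.47, limma, adjusted p = 0.0150), while voom called 2 genes, 1 higher and 1 lower. Without TL replicate 1, 2 genes were called lower there, and without TL replicate 5, 1 was. In TL against TV 0 were called with limma or voom, with 3 at an unadjusted p under 0.05, and 1 was called lower without TL replicate 4.

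Some genes of that list resembled Pdk4 over the libraries. Ucp3, a mitochondrial uncoupling protein of muscle, was chosen after the values had been seen, for its likeness to Pdk4 within groups. It stood at 19.8, 21.3, 17.9 and 14.6 FPKM in TL, 30.4, 62.9, 13.6 and 41.3 FPKM in TV, and 12.7, 32.4, 58.8 and 42.1 FPKM in NTV. As for Pdk4, TV replicate 6 and NTV replicate 2 were low and TV replicate 4 was the highest. The TL values of Ucp3 lay close together, which those of Pdk4 did not. Over deviations from the group means of 12 libraries, Ucp3 had Pearson r = 0.79 with Pdk4, Acot2, a mitochondrial acyl-CoA thioesterase, 0.74, and Cpt1a, which takes fatty acids into mitochondria, 0.63. Other fatty acid genes of the list were less like it, with r = 0.36 for Cd36, 0.21 for Plin2, 0.20 for Slc25a20 and -0.015 for Hadha, and the last 3 had a higher mean in TL than in TV. The 4 glucocorticoid or atrophy genes named above had r = 0.53 for Trim63, 0.50 for Fkbp5, 0.48 for Fbxo32 and 0.45 for Per1. The median r over the 19 genes was 0.48, with 17 above 0, beside 0.020 for 9661 protein-coding genes. For the 18 transcription factors and coactivators the median was 0.085, with 11 above 0. They ran from -0.58 for Stat5b to 0.69 for the coactivator Ppargc1a, with 0.58 for Foxo3 and 0.48 for Nr4a3. These values describe likeness over libraries that share their scaling and carry no test. Ucp3 itself was not called in TL against TV (-0.81 ± 0.48, limma, adjusted p = 0.432).

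**Figure D5:**
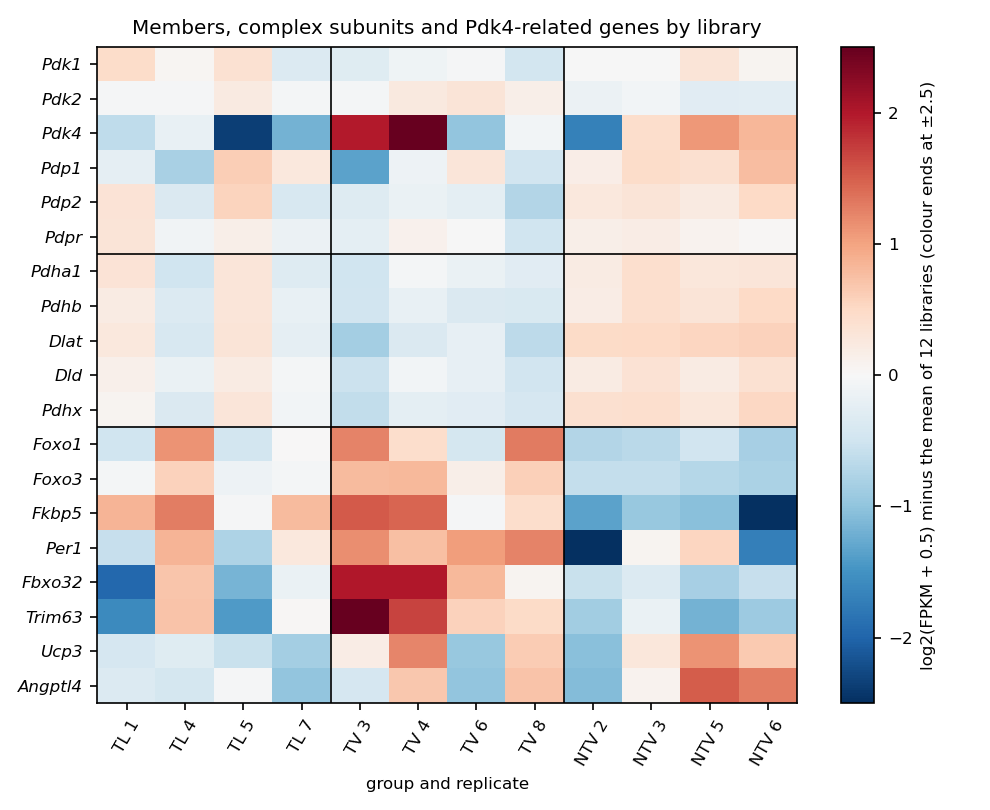
Deviation of log2(FPKM + 0.5) from the mean of 12 libraries (colour, ending at ±2.5) for 6 genes of the family, 5 subunits of the complex and 8 genes related to Pdk4 (rows), in each library by group and replicate (columns). Pdk4 and Ucp3 are below their mean in all TL libraries, in TV replicate 6 and in NTV replicate 2, with Pdk4 slightly below it in TV replicate 8 as well, and the 5 subunits are above their mean in all NTV libraries.

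Of 9 hypoxia responsive genes, a set to which Pdk1 belongs in other settings, 3 rose, 2 fell and 4 were not called in TV against NTV (median 0.11). The background was 13.8% of all genes called higher and 11.5% called lower. Pfkfb3, which makes the activator of phosphofructokinase and so drives glycolysis, had 13.2, 27.2, 11.0 and 49.3 FPKM in TL, 126, 153, 155 and 104 FPKM in TV, and 28.1, 33.1, 54.6 and 58.2 FPKM in NTV. It rose by 1.67 ± 0.41 in TV against NTV (SE, limma, adjusted p = 0.0129). In TL against TV it fell by 2.62 ± 0.41 (limma, adjusted p = 0.0197), with all TL libraries below all TV libraries. This call was lost without any single one of TL replicates 1 and 5 and TV replicates 3 and 4 (limma, adjusted p of up to 0.0683), with no filter on low values (0.0549) and with only the 2 groups (0.0747). Without both TL replicates 1 and 5 the change was -1.84 (0.209). In TV against NTV, Bnip3, a mitophagy receptor, rose by 0.81 ± 0.27 (limma, adjusted p = 0.0442), while Car9, a carbonic anhydrase, fell by 0.72 ± 0.21 and Vegfa, the vascular growth factor, by 0.52 ± 0.16 (limma, adjusted p = 0.0266 and 0.0352). Each of these 3 calls ended when 1 of at least 5 of the 8 libraries was left out, with adjusted p of up to 0.119 for Bnip3, 0.0758 for Car9 and 0.0945 for Vegfa. The call of Bnip3 was also lost with no filter, equal sums, quantile normalization, only the 2 groups, and without the Ucp1 libraries (limma, adjusted p of up to 0.149). That of Vegfa was lost with equal sums and with no filter (up to 0.111), and that of Car9 with no filter (0.0604). Without TV replicate 3, 1 of the 9 rose and 0 fell in TV against NTV. In TL against NTV 0 of the 9 were called with limma or voom, 2 had an unadjusted p under 0.05, and 1 was called lower without TL replicate 7.

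The genes most like each member over the 12 libraries were taken from 9661 protein-coding genes by Pearson r of log2(FPKM + 0.5), as a description with no test. For Pdk4 they were Ctla2a (r = 0.94), Synj2 (0.91), Rnf144b (0.88), Slc20a2 (0.87) and Dgkd (0.87), and each of these was highest in TV replicate 3 or 4. For Pdk2 they were Rab5b (0.91) and Pink1 (0.91), for Pdk1 Aco1 (0.93) and Mtx1 (0.91), and for Pdp1 Rilp (0.94) and 4833439L19Rik (0.94). For Pdp2 they were mt-Nd5 (0.95), a subunit of respiratory complex I encoded in the mitochondrial genome, and Srr (0.94), and for Pdpr Nudt12 (0.93) and Grsf1 (0.92). The group means of mt-Nd5 were 4747 FPKM in TL, 3457 FPKM in TV and 6239 FPKM in NTV, in the same order as those of Pdp2 at 1.26, 0.790 and 1.58 FPKM. This like order, and the shared high libraries of the genes like Pdk4, follow from choosing the genes by their likeness and are no further finding.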

How the data were processed

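The authors deposited FPKM values of 54532 genes in 12 gastrocnemius libraries, 4 each of TL, TV and NTV, with gene lengths in bases. Per the labels' protocols, poly(A) mRNA was primed with random hexamers. DESeq2, featureCounts 1.5.0-p3, HISAT2 2.05 and the build mm10 are listed, without their roles, per the submitters' processing notes. FPKM times gene length was divided by a constant fitted for each library. This gave whole reads for 100% of genes (tolerance 0.1 read), and so the read numbers and the voom alternative. The test was limma (3.58.1, under R 4.3.3) with a trended variance, fitted to log2(FPKM + 0.5) of all 12 libraries with 1 mean per group. The 12754 genes averaging 0.5 FPKM or more entered it, p-values were adjusted over all of them (Benjamini-Hochberg), and a gene was called under 0.05. The script was first tried on simulated data. The added 0.5 understates changes of low genes such as Pdp2.

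Members, lists and markers were chosen with earlier results of these data known. All 7 members and 5 subunit genes are named, and of each other list up to 4 called genes with the largest change. A listed gene that was not tested is not reported here. The 5 genes most like Pdk4 and the 2 most like each other tested member are named by Pearson r. Alternatives were other pseudocounts (0.1, 1), filters (none, 1 FPKM) and scalings (equal sum, quantile), no trend, only the 2 groups compared, voom, the replicate number as a block, each library left out, and the 3 libraries with Ucp1 above 2 FPKM or TL replicates 1 and 5 left out. Summaries and figures used matplotlib 3.10.9, pandas 2.3.3 and numpy 2.4.6 in Python 3.11.15.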

Additional observations from a re-analysis of the deposited data

Results flagged for a closer look

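Pdk2 in TL replicate 5 stood apart from the other TL libraries, at 222.1 FPKM against 186.8 FPKM in the nearest of them, a gap that made up 0.906 of the group's range. Of 21 groups of 4 libraries examined for the 7 genes, this was the 1 that stood out by Dixon's criterion, and chance flags about 1 in 20.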

How the results depend on the processing

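The number of members called in TV against NTV was 2 in the fit as reported. It was 0 with no filter on low values, and 1, with the call of Pdk2 lost, with quantile normalization, with a fit of TV and NTV alone, and when the 3 libraries holding over 2 FPKM of Ucp1 were left out. Leaving out 1 library at a time gave 0 to 2 members. Without TL replicates 1 and 5, 1 member was called in TL against NTV, while every other setting gave 0 there, and 0 were called in TL against TV in every setting run. Genes called in TL against TV numbered 66, and 19 with no filter, 40 with equal sums, 8 with only the 2 groups, 0 without the Ucp1 libraries, 4 without TL replicates 1 and 5, and 7 to 282 without 1 library. In TL against NTV they numbered 1123, and 742 with no filter, 729 with equal sums, 712 without the Ucp1 libraries, and 514 to 1160 without 1 library. In TV against NTV 3217 were called, and 2223 to 3443 without 1 library. With no filter on low values, the calls of Pdha1, Dbt, Foxo1, Cebpb, Per1 and Fbxo32 in that comparison were also lost. So was that of Cebpb with quantile normalization, of Per1 with only the 2 groups, and of Foxo1 without the Ucp1 libraries. Scaling to equal sums moved the median of all genes in TL against NTV to 0.14, and the higher share of called genes to 63.0%, against 47.6% as reported, and in TL against TV to 75.0%, against 45.5%. Signs turned for small changes that were not called. Pdpr in TL against NTV was 0.075 with equal sums and -0.15 to 0.010 without 1 library, above 0 without TL replicate 7. Pdk1 in TL against NTV was -0.17 without the Ucp1 libraries, -0.24 without TL replicates 1 and 5, and -0.062 to 0.21 without 1 library, below 0 without TL replicate 1 or 5. Without the Ucp1 libraries, and without TL replicates 1 and 5, TL against TV gave -0.020 for Pdp2 and -0.16 for Pdha1. The cause of these shifts was not tested.

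The replicate numbers are shared by 2 pairs of libraries in TV and NTV and by 1 pair in each of the other comparisons. Correlations of deviations were 0.014 and 0.13 in the first, 0.075 in TL against TV and 0.086 in TL against NTV. The fit with the replicate block gave a consensus correlation of 0.095. Pairs of unlike number were not set beside these, so the values cannot decide whether such libraries share more than a number. With the replicate block, 3383 genes and 2 members were called in TV against NTV, 72 genes in TL against TV, and Pdk2 changed by 0.36 (limma, adjusted p = 0.0334). Depth limits Pdk3, at 4 to 31 reads per library, and Pdp2, at 39 to 178 reads.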
